A study of Homo sapiens with 2 samples.

Results

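The 10 genes described here encode amino acid transporters of the plasma membrane and the lysosome: SLC7A11, SLC7A5, SLC3A2, SLC1A5, SLC1A4, SLC38A1, SLC38A2, SLC6A9, SLC7A1 and SLC36A1. They were taken by symbol from a table of 50868 genes, each matched 1 row, and all 10 passed the minimum of 10 reads over both libraries that 15384 genes passed. They were selected on their function and on their counts in the same 2 libraries, so their differences are given as a description, without a test. RNA-seq was performed on MOLM-13, a human acute myeloid leukemia (AML) cell line with the KMT2A::MLLT3 fusion, grown in 1640 medium with 10% fetal bovine serum. There was 1 library of cells with the empty vector (Vector, the control for over-expression) and 1 library of cells labelled as over-expressing UNC5B (OE-UNC5B), to ask which genes change with this netrin receptor. According to the methods, UNC5B was delivered by a lentivirus in which the CMV promoter drives a FLAG-tagged copy with mCherry. The cells were screened with puromycin. Neither the labels nor the methods say whether the cells were pools or clones.

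The targeted gene was checked first. UNC5B had 0 reads in either library, so the counts do not show the over-expression. The second library is therefore called the library labelled OE-UNC5B, and every direction given here rests on that label. The libraries held 13715566 reads (Vector) and 15637137 reads (labelled OE-UNC5B) on genes, and 3 reads, the limit that a count of 0 allows, correspond to 0.222 and 0.189 CPM, that is reads scaled to library size. Of 12 markers of myeloid AML cells, 11 had at least 10 reads, and CD14 had 4 and 5 reads. Of these 11, 7 had a log2 ratio above 0, and the median was 0.17. At least 2-fold higher were 0 of the 11. At least 2-fold lower were 2, LYZ (51742 and 23700 reads) and MPO (3363 and 1553 reads). Over all genes with at least 10 reads, 5.27% were at least 2-fold higher and 4.72% at least 2-fold lower. Of 11 markers of HEK293T cells, which packaged the virus, 7 were at 0 reads in Vector and 9 in the other library. The list held 381 and 164 reads, of which GAL held 372 and 162. GAL, the 1 of them with at least 10 reads, was at least 2-fold lower. The 10 fibroblast markers held 59 and 17 reads in all, and the 3 with at least 10 reads were all at least 2-fold lower. The 10 endothelial markers held 1636 and 1478 reads, of which PECAM1, which myeloid cells also express, held 1626 and 1471. The part of these markers in the results was not tested.

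Amino acids cross membranes on carriers of several solute carrier (SLC) families. Exchangers such as SLC7A5 and SLC7A11 swap one amino acid for another and reach the surface only when bound by the glycoprotein SLC3A2 (CD98 heavy chain), whereas sodium-coupled carriers such as SLC38A1 and SLC38A2 build up the glutamine and other neutral amino acids that exchangers then trade. Growing leukemia cells depend on this supply for protein synthesis, glutathione and mTORC1 activity. Several of these genes are textbook targets of ATF4, the transcription factor of the amino acid response, which binds DNA at a composite C/EBP-ATF response element (CARE).

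Of the 10 transporters, 7 had at least a 2-fold higher scaled count with the OE-UNC5B label, 1 was at least 2-fold lower and 2 were higher by less than 2-fold. Among all genes tested, 5.27% were at least 2-fold higher and 4.72% at least 2-fold lower. In bulk RNA, a gene expressed by more cells and a gene expressed more per cell cannot be told apart. Because the same contrast helped to choose the transporters, nothing is read from this difference in shares. Their median log2 ratio was 1.05, beside -0.01 over all genes tested. Together the 10 genes took up 22032 reads of Vector and 53489 of the other library, or 1633 and 3364 CPM after TMM scaling, which adjusts library sizes for a few very abundant or changed genes. SLC6A9 (log2 ratio 2.35) and SLC7A11 (2.17) formed the top of the order and SLC36A1 (-2.00) the bottom. Between them, 7 genes lay in a narrow band from 0.84 to 1.24. Among neighbours in this order, the counting intervals overlapped for SLC6A9 and SLC7A11, for SLC38A1, SLC38A2, SLC1A5 and SLC7A1 in succession, and for SLC1A4 and SLC3A2. Intervals are exact 95% intervals from the reads, and cover counting error but no variation between cultures, since there is no replicate.

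**Figure D1:**
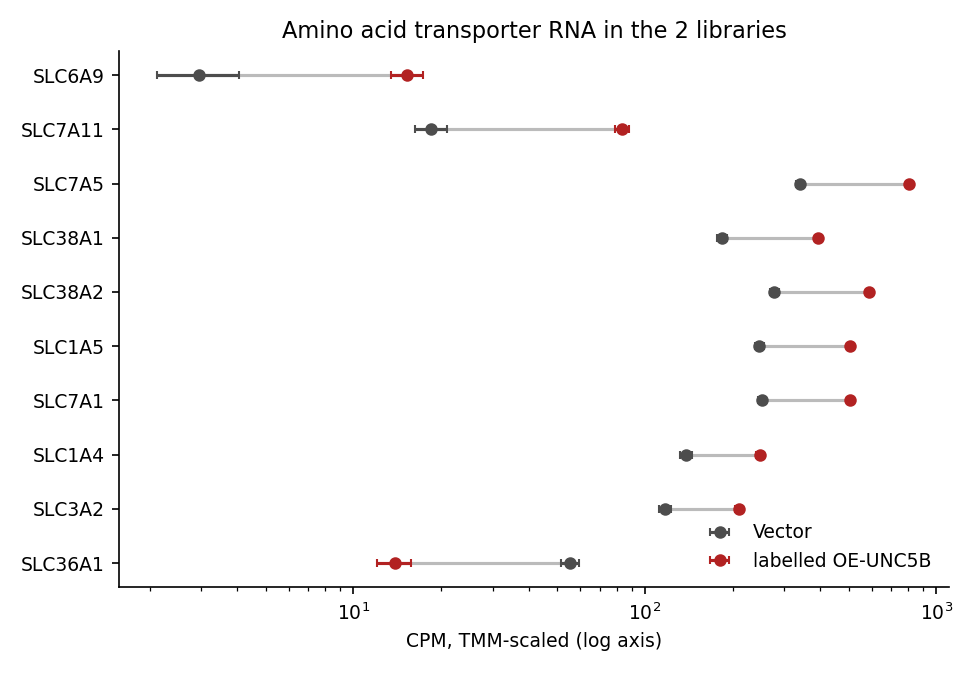
TMM-scaled CPM of the 10 transporters (log axis) in Vector (dark) and in the library labelled OE-UNC5B (red), 1 library each, with exact 95% Poisson intervals of the counts as bars. For 9 genes the red point lies to the right of the dark one, and for SLC36A1 it lies to the left, at 13.8 against 55.4 CPM.

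The sequence around the transcription starts was searched next. Genes chosen by function and count include known ATF4 targets, which are known through such sites, so the shares here are a description and not independent of the choice. RefSeq starts (GRCh38.p14) were at hand for 9 of the 10 genes, with 16 starts in all; SLC7A11 was not among them. The letters of the CARE, TGATGNAA on either strand, occurred within 1000 bases of a start in 8 of these 9 genes, against 25.8% of 27296 genes. Counted by start, 11 of 16 windows of 2001 bases held them, against 22.8% of 35107 windows. In the narrower window from 250 bases before the start to the 50 bases that begin with it, 5 of 9 genes held them, against 4.46% of 27305 genes. Some of the 9 genes have more than 1 start, and the 9 have more starts per gene (16 in all) than the background (35116 windows for 27305 genes), which gives the letters more places to occur. SLC36A1, the gene that was lower, was the 1 of 9 with no such letters in its windows. The 10 distinct matches are printed here because 8 of the 9 genes carried at least 1 of them. Each is written 5′ to 3′ on the strand that reads TGATG, with the 8 matching bases in capitals and 10 bases on either side, and with its place in the canonical transcript and its distance from the nearest start.

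SLC6A9, chr1:44031370-44031397, minus strand, untranslated exon, 75 bases after the start: ctcgggaggcTGATGCAActttcccttt
SLC7A5, chr16:87868809-87868836, plus strand, intron, 681 bases after the start: aggggcgtagTGATGCAAggatgcaggg
SLC38A1, chr12:46266503-46266530, minus strand, intron, 4 bases before the start: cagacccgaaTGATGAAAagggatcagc
SLC38A1, chr12:46268790-46268817, minus strand, untranslated exon, 820 bases before the start: ggggagattcTGATGCAAtcggcccgga
SLC38A2, chr12:46372043-46372070, plus strand, intron, 713 bases after the start: gaaagaaaacTGATGCAAtatcgatcgt
SLC1A5, chr19:46784894-46784921, minus strand, intron, 97 bases before the start: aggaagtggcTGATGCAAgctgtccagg
SLC7A1, chr13:29595140-29595167, minus strand, intron, 531 bases after the start: gcgtggtgcaTGATGCAAcaccgagtga
SLC7A1, chr13:29595664-29595691, minus strand, untranslated exon, 7 bases after the start: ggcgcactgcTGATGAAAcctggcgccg
SLC1A4, chr2:64989382-64989409, minus strand, untranslated exon, 7 bases before the start: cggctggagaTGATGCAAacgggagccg
SLC3A2, chr11:62881726-62881753, minus strand, intron, 37 bases after the start: tcagaggagcTGATGTAAggagtcctgc

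Of these 10 matches, 7 had the core TGATGCAA, 2 had TGATGAAA (SLC38A1 and SLC7A1) and 1, in SLC3A2, had TGATGTAA. In the canonical transcripts, 6 lay in introns and 4 in untranslated exons. The TGATGCAA core, singled out after the matches were seen, occurred within 1000 bases of a start in 7 of 9 genes, against 5.43% of all genes, and in the narrower window in 2 of 9, against 1.08%. A letter match is not evidence that a factor binds there.

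SLC36A1 instead held the E-box CACGTG, the letters read by MYC and by the lysosomal regulators TFEB and TFE3, at 2 places before its inner start, 43 and 8 bases away. The first of these extends to CACGTGAC, a core of the lysosomal CLEAR element that overlaps the E-box. Its promoter is shown because it carries this pair; the 250 bases before the start are given with the E-boxes in capitals.

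SLC36A1, chr5:151447353-151447602, plus strand: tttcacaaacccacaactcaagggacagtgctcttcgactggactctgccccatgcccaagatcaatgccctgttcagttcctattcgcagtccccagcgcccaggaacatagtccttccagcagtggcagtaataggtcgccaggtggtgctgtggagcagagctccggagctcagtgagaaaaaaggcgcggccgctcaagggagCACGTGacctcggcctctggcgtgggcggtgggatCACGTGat

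E-box letters occurred within 1000 bases of a start in 3 of the 9 genes (SLC36A1, SLC1A5 and SLC7A5), against 29.6% of all genes, and in the narrower window also in 3 of 9, against 8.77%. The CACGTGAC letters occurred in 2 of the 9 (SLC36A1 and SLC1A5), against 5.55%, and in the narrower window also in 2 of 9, against 2.93%. The antioxidant response element, searched as TGACNNNGC, occurred within 1000 bases of a start in 9 of 9 genes, against 56.0% of all genes, and in the narrower window in 4 of 9, against 16.1%.

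**Figure D2:**
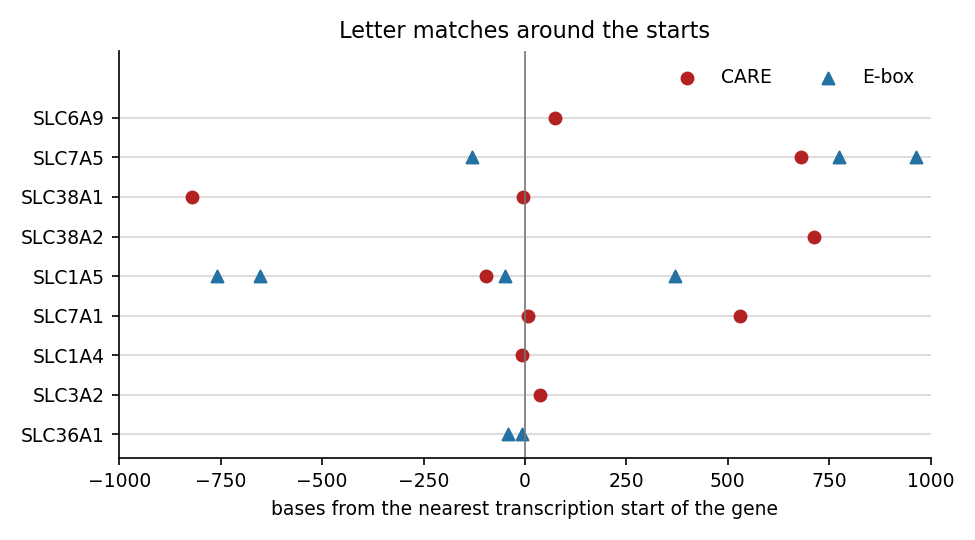
Distance in bases from the nearest transcription start of each of 9 transporter genes to CARE letters (TGATGNAA, red circles) and E-box letters (CACGTG, blue triangles), within 1000 bases on either side. Genes are ordered by their log2 ratio, highest at the top; SLC36A1 at the bottom has 2 E-boxes and no CARE match.

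SLC7A11, also called xCT, imports cystine in exchange for glutamate and so feeds glutathione synthesis. It counted 249 reads in Vector against 1324 in the library labelled OE-UNC5B, which is 18.5 CPM (95% interval 16.2 to 20.9) against 83.3 CPM (78.9 to 87.9). The ratio was 4.51-fold (3.94 to 5.19), number 128 from the top of the 15384 genes tested. Its deposited FPKM, which are reads scaled to gene length and library size, went from the 40.8th to the 76.0th percentile of genes tested. The gene occupies chromosome 4 (GRCh38), 138164097 to 138242349, minus strand, with 12 exons in its canonical transcript. SLC7A11-AS1, an antisense gene that covers 8.97% of its exonic bases, had 0 reads in both libraries.

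SLC7A5, also called LAT1, takes up leucine and other large neutral amino acids in exchange for glutamine. It counted 4586 reads in Vector against 12774 in the library labelled OE-UNC5B, or 340.0 CPM (330.2 to 349.9) against 803 CPM (790 to 818). The ratio was 2.36-fold (2.28 to 2.45). In deposited FPKM, SLC7A5 was the most abundant of all 52 amino acid transporters examined in both libraries, at 64.4 and 157. Per kilobase of canonical transcript, SLC7A5 stood at 74.6 and 176 CPM, below SLC1A5 in Vector (85.7) and close to it in the library labelled OE-UNC5B (175). Its pseudogenes SLC7A5P1 (32 and 47 reads) and SLC7A5P2 (27 and 16 reads), whose reads the counting could have split with SLC7A5, held few reads beside it.

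SLC3A2, the heavy chain that SLC7A5 and SLC7A11 need, was higher by less than either of them. It counted 1583 reads in Vector against 3342 in the library labelled OE-UNC5B, or 117 CPM (112 to 123) against 210.2 CPM (203 to 217). The ratio was 1.79-fold (1.69 to 1.90), and this interval lies below those of SLC7A5 and SLC7A11. The heavy chain can pair with several SLC7 chains, of which 5 passed the minimum of reads. SLC7A6 (y+LAT2), an exchanger for cationic and neutral amino acids, had 1816 and 2410 reads and a log2 ratio of 0.17 (0.08 to 0.26). SLC7A7 (y+LAT1), which works in the same way, had 38 and 61 reads and a log2 ratio of 0.44 (-0.16 to 1.07). SLC7A8 (LAT2), a neutral exchanger, had 5 and 31 reads.

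Among the partner chains, SLC7A5 dominated in both libraries, and the share of SLC7A11 was larger in the library labelled OE-UNC5B. SLC7A5 made up 87.9% of their summed FPKM in Vector against 90.3% in the library labelled OE-UNC5B. SLC7A11 made up 2.51% and 4.92%, and SLC7A6 9.29% and 4.55%. The FPKM of SLC7A6 imply a length of 19440 nt, against 6255 nt for its canonical transcript, and in reads its share was 27.1% and 14.5%. In reads, the share of SLC7A11 was 3.72% (95% Clopper-Pearson interval 3.28 to 4.20) in Vector and 7.97% (7.57 to 8.40) in the other library. The summed FPKM of the partner chains was 73.3 and 174, against 7.85 and 14.5 for SLC3A2, that is 9.34 and 12.0 times the heavy chain. This ratio depends on the gene length behind the FPKM. The deposited values imply a length of 14700 nt for SLC3A2, whereas its exons cover 6392 nt in GENCODE 44 and its canonical transcript has 1885 nt. Per kilobase of canonical transcript, the partner chains came to 1.60 times SLC3A2 in Vector against 1.90 times in the library labelled OE-UNC5B. The ratio was larger in the library labelled OE-UNC5B on both length scales, while its size differed between the scales.

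**Figure D3:**
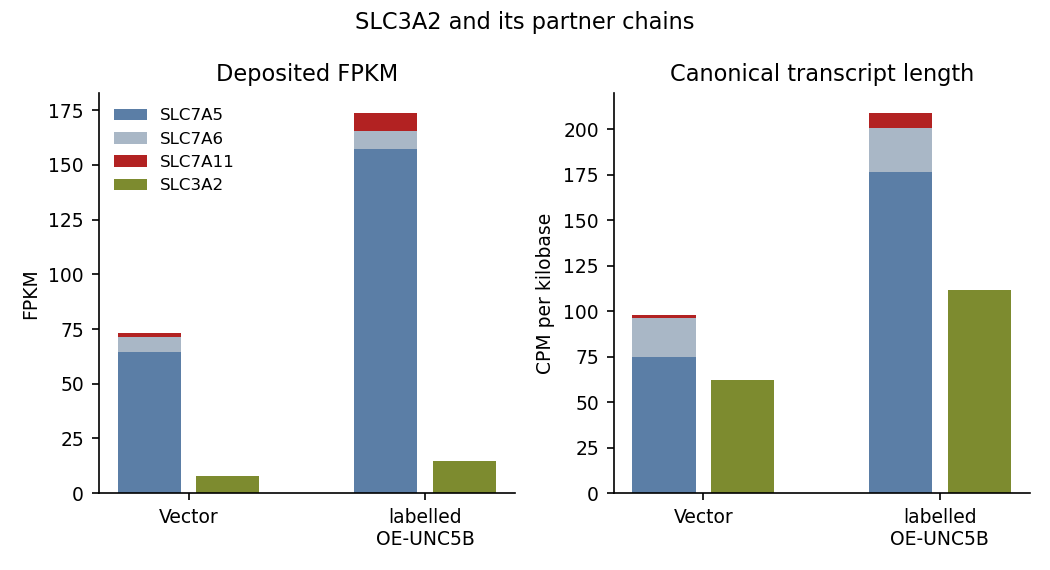
Stacked levels of the 3 most abundant partner chains (SLC7A5, SLC7A6, SLC7A11) beside SLC3A2 in each library, as deposited FPKM (left) and as TMM-scaled CPM per kilobase of canonical transcript (right), 1 library per bar and no error bars. SLC3A2 is 7.85 and 14.5 FPKM on the left and 62.3 and 112 CPM per kilobase on the right, so the length used changes its height beside the stack.

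SLC1A5 (ASCT2), a sodium-dependent exchanger that takes up glutamine, counted 3332 reads in Vector against 8032 in the library labelled OE-UNC5B. This is 247 CPM (239 to 256) against 505 CPM (494 to 516), a ratio of 2.05-fold (1.96 to 2.13). Its relative SLC1A4 (ASCT1), which exchanges serine, alanine and cysteine, had 1863 and 3945 reads, or 138 CPM (132 to 145) against 248 CPM (240.4 to 256). The ratio for SLC1A4 was 1.80-fold (1.70 to 1.90), below 2-fold, and its interval does not reach that of SLC1A5. An antisense transcript without a symbol (ENSG00000275719) covers 27.1% of the canonical SLC1A5 transcript, and held 14 and 22 reads. Use of strand in the counting is not given in the sources used here, so antisense reads could not be set apart.

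SLC38A1 (SNAT1) and SLC38A2 (SNAT2) are sodium-coupled importers of glutamine, alanine and other neutral amino acids, and SLC38A2 is the classical carrier of adaptation to amino acid shortage. SLC38A1 had 2480 and 6250 reads, or 184 CPM (177 to 191) in Vector against 393 CPM (383 to 403), a ratio of 2.14-fold (2.04 to 2.24). SLC38A2 had 3753 and 9326 reads, or 278 CPM (269 to 287) against 587 CPM (575 to 599), a log2 ratio of 1.08 (1.02 to 1.13). The ratios of this pair differed by 0.02 on the log2 scale and their intervals overlap. The genes lie close together on chromosome 12, SLC38A1 from 46183063 to 46270017 and SLC38A2 from 46358189 to 46372867, both on the minus strand. Within 500 kb of SLC38A1, the 7 tested neighbours had a median log2 ratio of 0.74, beside -0.01 over all genes tested. The 2 past 2-fold, both higher, were SLC38A2 itself and AC025031.4, with 3 and 12 reads. Of all genes tested, 5.27% were at least 2-fold higher and 4.72% lower.

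SLC6A9 (GlyT1), a sodium- and chloride-dependent glycine importer, had the largest TMM-scaled ratio of the 10 and the lowest level in Vector. It counted 40 reads in Vector against 243 in the library labelled OE-UNC5B, or 2.97 CPM (2.12 to 4.04) against 15.3 CPM (13.4 to 17.3). The ratio was 5.11-fold (3.68 to 7.39), the widest interval of the 10, at the smallest count in Vector. From FPKM with 0.1 added, its log2 ratio was just below that of SLC7A11 (2.158 against 2.162). With 1 added it was 1.16, below SLC7A11 (1.75) and SLC7A5 (1.28). The exons of CCDC24, on the opposite strand, cover 7.87% of the exonic bases of SLC6A9 and 1.43% of its canonical transcript. CCDC24 had 9 and 7 reads. SLC7A1 (CAT1), the carrier of arginine and lysine, was among the abundant ones. It had 3398 and 8033 reads, or 252 CPM (243 to 261) against 505 CPM (494 to 516). Its ratio of 2.01-fold (1.93 to 2.09) sits at the 2-fold line, and its interval extends to either side.

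SLC36A1 (PAT1), a proton-coupled carrier that moves small neutral amino acids out of lysosomes and takes part in mTORC1 signalling, differed in the opposite direction. It counted 748 reads in Vector against 220 in the library labelled OE-UNC5B, or 55.4 CPM (51.5 to 59.6) against 13.8 CPM (12.1 to 15.8). The log2 ratio was -2.00 (-2.23 to -1.78), number 169 from the bottom of the genes tested. Its FPKM went from the 68.2nd to the 35.6th percentile of genes tested. Per kilobase of canonical transcript SLC36A1 stood above SLC7A11 and SLC6A9 in Vector (9.61 against 1.91 and 0.925 CPM per kilobase), and below both in the library labelled OE-UNC5B (2.40 against 8.63 and 4.77). The gene lies on chromosome 5 from 151437046 to 151492381 on the plus strand, and in GENCODE 44 no exon of another gene overlaps its exons. Of its 11 tested neighbours within 500 kb, 3 were at least 2-fold lower and 0 higher, beside 4.72% and 5.27% of all genes tested, with a median log2 ratio of -0.36. These 3, named after their values were seen, were CCDC69 (698 and 316 reads), ANXA6 (73 and 27 reads) and the matrix gene SPARC (26 and 1 reads). Around the other genes the medians of tested neighbours were 0.43 for SLC7A11 (1 neighbour), 0.17 for SLC7A5 (9), -0.12 for SLC3A2 (33), -0.03 for SLC1A5 (19), -0.03 for SLC1A4 (8), 0.79 for SLC38A2 (6, SLC38A1 included), -0.14 for SLC6A9 (14) and 0.26 for SLC7A1 (1). Past 2-fold were 2 higher and 3 lower neighbours of SLC3A2, 2 higher of SLC7A5, 2 higher of SLC1A5, 1 higher of SLC1A4, 2 higher of SLC38A2, and 0 of SLC7A11, SLC6A9 and SLC7A1. The part of the position in any of these differences was not tested.

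Of 42 other amino acid transporters examined, 18 had 0 reads in both libraries, 19 passed the minimum of reads, 2 of these 19 were at least 2-fold higher and 0 lower, beside 5.27% and 4.72% of all genes tested, and their median log2 ratio was 0.17. The 10 were chosen partly on their ratios, so nothing is read from a contrast with these genes. SLC6A6, the taurine transporter, had 422 and 3049 reads and a log2 ratio of 2.61 (2.47 to 2.77), which lies within the interval of SLC6A9 (1.88 to 2.89). SLC7A8, the other gene past 2-fold, had a log2 ratio of 2.29 with a wide interval (1.02 to 4.12). SLC7A2, a cationic carrier related to SLC7A1, had 349 and 676 reads and a log2 ratio of 0.72 (0.53 to 0.91). SLC38A5, a relative of SLC38A1 and SLC38A2 that carries glutamine and histidine, had 1351 and 993 reads and a log2 ratio of -0.68 (-0.80 to -0.56), opposite in sign to both.

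Inside the cell, 0 of the 10 tested lysosomal and other intracellular amino acid transporters were past 2-fold in either direction, with a median log2 ratio of -0.01. Of all genes tested, 5.27% were at least 2-fold higher and 4.72% lower, so with 10 genes nothing is read from this count. SLC36A4, a relative of SLC36A1, had 590 and 507 reads and a log2 ratio of -0.46 (-0.63 to -0.28). SLC38A9, the lysosomal arginine sensor of mTORC1, had 400 and 604 reads and a log2 ratio of 0.36 (0.17 to 0.54). SLC15A4, a lysosomal histidine and peptide carrier, was the lowest of these at -0.88 (-1.09 to -0.67).

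**Figure D4:**
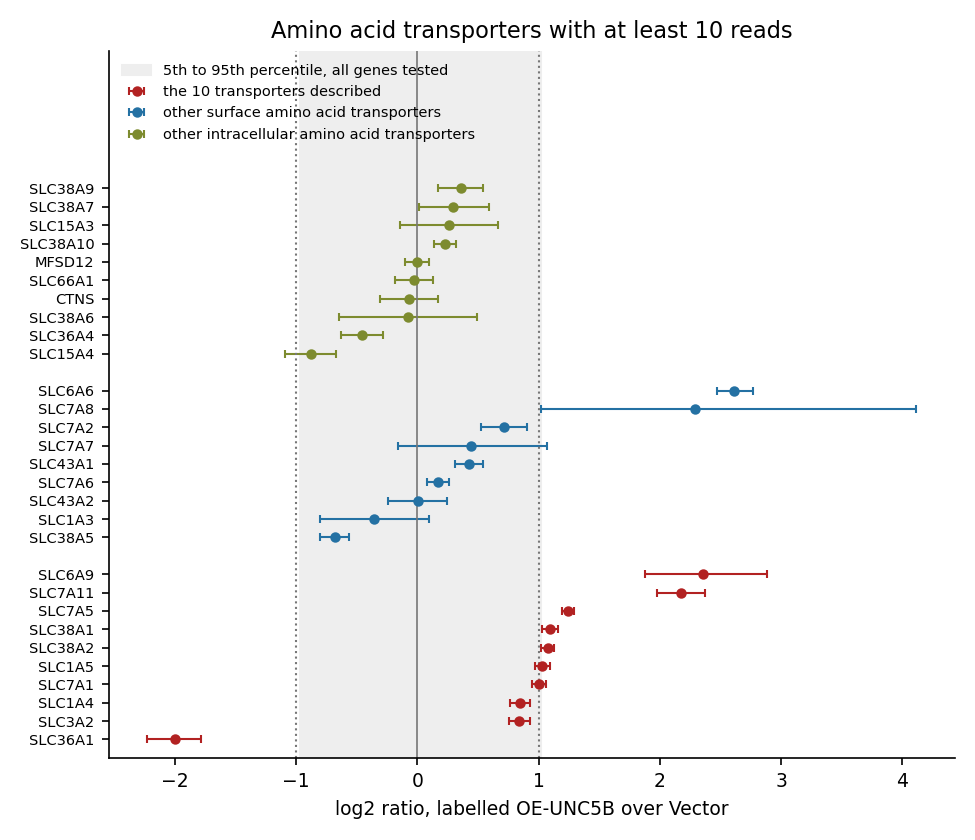
Log2 ratio of the library labelled OE-UNC5B over Vector for the 10 transporters (red), the other surface transporters (blue) and the other intracellular ones (green) with at least 10 reads; bars are 95% intervals from the reads, dotted lines mark 2-fold and the grey band holds the 5th to 95th percentile of all genes tested (-0.97 to 1.02). SLC36A1, SLC6A9, SLC7A11, SLC6A6 and SLC7A8 lie farthest from 0.

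The genes that drive or use amino acid transport were described in the same way, as counts past 2-fold, to be read beside the 5.27% of all genes tested that were higher and the 4.72% that were lower, and as medians beside the -0.01 of all genes tested. Of 20 tested regulators and effectors of the amino acid response, 9 were at least 2-fold higher and 1, GDF15 with 10 and 2 reads, was lower, a call lost with a minimum of 50 reads, and the median log2 ratio was 0.84. ATF4 itself had 4993 and 10509 reads and a log2 ratio of 0.84 (0.79 to 0.89). DDIT4, an inhibitor of mTORC1 signalling, had 481 and 3507 reads and a log2 ratio of 2.63. ASNS, which makes asparagine, had 766 and 3400 reads and a log2 ratio of 1.91. TRIB3, a feedback inhibitor of ATF4, had 906 and 3186 reads, and VLDLR, a lipoprotein receptor, 658 and 1876.

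For cystine and glutathione, 3 of 21 tested genes were at least 2-fold higher and 0 lower, with a median log2 ratio of -0.30. The 3 were CTH (148 and 1005 reads) and CBS (43 and 189 reads), which make cysteine from homocysteine, and CHAC1 (36 and 139 reads), which degrades glutathione. NFE2L2, which encodes NRF2, another textbook regulator of SLC7A11, had 1015 and 1447 reads and a log2 ratio of 0.27 (0.16 to 0.39). KEAP1, its inhibitor, had 1427 and 1366 reads and a log2 ratio of -0.30 (-0.41 to -0.19). Of the NRF2 targets in the list, GCLC, a subunit of the enzyme that starts glutathione synthesis, had 512 and 762 reads and a log2 ratio of 0.34 (0.17 to 0.50). GCLM, the other subunit, went the other way, with 214 and 178 reads and a log2 ratio of -0.50 (-0.80 to -0.21). TXNRD1, a thioredoxin reductase, had 1660 and 1946 reads and a log2 ratio of -0.01 (-0.10 to 0.09). NQO1, a quinone reductase and the lowest of the tested genes in the list, had 120 and 71 reads and a log2 ratio of -0.99 (-1.44 to -0.56).

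Among the 14 tested enzymes that use the carried amino acids, 3 were at least 2-fold higher and 0 lower, with a median of 0.06. They were BCAT1, which transaminates the branched-chain amino acids that SLC7A5 carries (1674 and 4224 reads), GPT2, which links glutamate to alanine (913 and 2665 reads), and ASNS. Of the MYC network, 1 of 10 tested genes, MXI1 (375 and 1090 reads), was past 2-fold, and MYC had 345 and 451 reads and a log2 ratio of 0.15 (-0.06 to 0.36). The mTORC1 sensing list had 2 of 30 tested genes (6.67%) higher, a share near that of all genes, and 0 lower. They were DDIT4 and SESN2, a leucine sensor with 404 and 1451 reads. The median of that list was -0.07. The lists share genes, so they are not separate observations. DDIT4, SESN2, ASNS and CHAC1 are also counted among the higher genes of the amino acid response.

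Of 27 tested lysosome and TFEB genes, 0 were past 2-fold in either direction and the median was -0.15, beside the -2.00 of SLC36A1. TFEB had 256 and 360 reads and a log2 ratio of 0.25 (0.02 to 0.49). Among 10 tested partners and turnover factors of the transporters, 1 was higher and 2 were lower. The higher one was TXNIP, an arrestin that restrains nutrient carriers, with 1345 and 5255 reads. OTUB1, a deubiquitinase reported to stabilise SLC7A11, had 1217 and 715 reads and sat at the 2-fold line, and NEDD4L, a ubiquitin ligase, had 16 and 5 reads. CD44, a surface partner of SLC7A11, had 1422 and 1688 reads and a log2 ratio of 0.01 (-0.09 to 0.11).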

How the data were processed

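MOLM-13 RNA was sequenced as 1 Vector library and 1 library labelled OE-UNC5B. Unnormalised counts of reads on each gene, beside FPKM, make up the 1 table that the authors deposited, with GRCh38 positions. The submitters' processing notes name bcl2fastq 2.19, HISAT2 2.0.4 and StringTie 1.3.0. Which annotation was counted, and whether by strand, is not given in the sources used here. The deposited FPKM scale with the reads counted on genes, and their lengths were recovered from counts and FPKM. Of 50868 gene identifiers, 49659 were found in GENCODE 44.

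Libraries were put on one scale by TMM factors from edgeR 4.0.16 under R 4.3.3. Log2 ratios were computed with 0.5 reads added, wherever the libraries together held at least 10 reads. A gene was called past the fold at 2-fold. Intervals are 95% Poisson (levels) and Clopper-Pearson (ratios, shares) intervals (scipy 1.17.1) and cover counting error only. With 1 library per group no test of the conditions, edgeR's quasi-likelihood test included, could be fitted, and no p-value is given. The ratio and interval code was tested on simulated data.

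The transporters and all gene lists were chosen with earlier results of these data known. Named besides the 10 genes were UNC5B, other transporters past 2-fold with at least 50 reads, partner chains of SLC3A2 with at least 10 reads, pseudogenes and overlapping genes of the 10, up to 4 genes past 2-fold with the most reads in each list, and ATF4, NFE2L2, KEAP1, MYC, TFEB and CD44. SLC7A8, SLC7A2, SLC38A5, SLC36A4, SLC38A9, SLC15A4, GDF15, GCLC, GCLM, TXNRD1 and NQO1 were named after their values were seen. The TGATGCAA letters and canonical lengths were also chosen after seeing the data. Promoters came from RefSeq (GRCh38.p14) and wider windows from hg38. The ratios were recomputed with library totals, with size factors of DESeq2 1.42.0, from FPKM of at least 1 (0.1 or 1 added), with 2 reads added, with no filter, with at least 50 reads, at 1.5-fold, and with an interval wholly past 2-fold.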

Additional observations from a re-analysis of the deposited data

How the results depend on the processing

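Under library totals, DESeq2 size factors, FPKM with 0.1 or 1 added, 2 reads added, no filter and at least 50 reads, 7 of the 10 transporters were past 2-fold higher and 1 lower, as with TMM. With 1.5-fold 9 were higher, and with the interval wholly past 2-fold 5 were, without SLC1A5 and SLC7A1, whose intervals reach under 2-fold. With 1 added to FPKM, the log2 ratio of SLC7A11 was 1.75, of SLC6A9 1.16 and of SLC36A1 -1.45, since the added value weighs on low genes.

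Over all genes, 811 were higher and 726 lower. There were 392 higher and 281 lower with FPKM and 0.1 added, 165 and 130 with 1 added, 3030 and 3068 with no filter, 361 and 296 with at least 50 reads, 1991 and 1918 with 1.5-fold, and 224 and 200 with the interval wholly past 2-fold. Of the other surface transporters, 2 were higher and 0 lower; this was 1 higher with either FPKM setting and with at least 50 reads, 4 higher and 1 lower with no filter, and 1 lower with 1.5-fold. Of the other intracellular transporters, 1 was lower with 1.5-fold. The FPKM settings change unit, added value and filter together, and the cause of their lower counts was not tested. Of the partners and turnover factors, 1 was higher and 2 were lower. The lower count was 1 with library totals and DESeq2 size factors, where OTUB1 was not past 2-fold, and 1 with at least 50 reads. It was 0 with either FPKM setting and with the interval wholly past 2-fold. With 1.5-fold, 2 of these factors were higher and 4 lower. Of the amino acid response genes, the 1 lower, GDF15, was lost with either FPKM setting, with at least 50 reads and with the interval wholly past 2-fold. Of the cystine and glutathione genes, 1 was higher with 1 added to FPKM, against 3. Lower were 3 with 1.5-fold and 1 with no filter, against 0. No paired analysis was possible because neither condition has a replicate, which also leaves none to drop in turn.

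The median of the cystine and glutathione list came to -0.10 and -0.06 with 0.1 and 1 added to FPKM. For the enzymes that use the carried amino acids, the median was 0.28 with no filter, against 0.06. Among the 10 transporters no log2 ratio changed sign. Depth limits SLC6A9 most, with 40 reads in Vector.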
